A study of Mus musculus with 9 samples.

Results

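The genes of the brain's vessel wall and its meningeal coverings were followed across a hippocampal RNA-seq study of the 3xTg mouse and the compound LP-10d. They are 37 genes chosen by name: 23 of endothelial cells, 5 of pericytes, 4 of smooth muscle and 5 of fibroblasts, out of 55471 genes in the deposited count table. All 37 were found, and 36 had enough counts to be tested, among 17396 genes tested in all. The gene left out was Tagln, an actin-binding protein of smooth muscle, which had 0 to 4 counts in any library.

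The mice were females aged 9 months, and each group had 3 libraries. LP-10d 3xTg mice were dosed orally with 10 mg/kg of the compound over 1 month, 4 times in each week. 3xTg vehicle mice and WT vehicle mice received blank solvent by mouth at the same weekly frequency. WT mice were labelled C57BL/6J. All 6 3xTg libraries share a genotype label of the form APPSwe/tauP301L/PS1M146V, with human APP and MAPT transgenes driven by the neuronal Thy1 promoter in this line. The label's PS1 position counts up by 1 from one library to the next, from M146V to M151V, so it cannot be read as written. No label gives a strain background for the 3xTg mice, so a strain difference from C57BL/6J and the transgenes cannot be told apart. The labels do not call the replicates separate animals, so the p-values measure the spread between these libraries, which may be technical. The series title describes the compound only as acting on 3 kinases, and the labels do not name them.

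Brain capillaries are lined by endothelial cells whose tight junctions, transporters and efflux pumps form the blood-brain barrier. Pericytes sit on the capillary wall and hold the barrier together through signalling with the endothelium, smooth muscle rings the arterioles and sets their width, and fibroblasts lie in the adventitia of larger vessels and in the meninges. Amyloid can deposit in vessel walls, and vessel cells have been studied in Alzheimer's disease for that reason. In RNA from whole tissue, fewer cells of a type and less RNA per cell cannot be told apart.

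The upstream sequences of 3 members that appear in the results are shown, 1 from a smooth muscle gene and 2 from endothelial genes, to show the letters that stand just before their starts. Each is the 250 bases before the RefSeq start on the gene's own strand in GRCm38.p6, the same assembly as the mm10 build of the files. The windows are chr19:34255374-34255623 on the minus strand for Acta2, chr2:32646345-32646594 on the plus strand for Eng and chr16:18776597-18776846 on the plus strand for Cldn5. Capitals in Acta2 mark 2 CArG boxes that carry 1 G or C in the A and T core, the motif read by serum response factor in contractile genes. Capitals in Eng mark 1 such box and 2 copies of AGGAAG, a form of the ETS factor core, and in Cldn5 they mark 1 GGGCGG, a GC box, all searched on both strands.
Acta2 upstream: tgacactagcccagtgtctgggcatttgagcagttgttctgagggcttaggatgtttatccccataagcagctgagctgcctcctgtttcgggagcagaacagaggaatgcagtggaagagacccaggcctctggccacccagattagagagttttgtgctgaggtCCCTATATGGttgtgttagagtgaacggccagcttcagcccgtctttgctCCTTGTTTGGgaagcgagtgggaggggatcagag
Eng upstream: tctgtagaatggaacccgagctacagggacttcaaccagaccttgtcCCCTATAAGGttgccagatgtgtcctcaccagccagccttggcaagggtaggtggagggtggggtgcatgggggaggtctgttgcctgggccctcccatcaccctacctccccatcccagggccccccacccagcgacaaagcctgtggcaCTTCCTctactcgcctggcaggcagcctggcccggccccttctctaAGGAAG
Cldn5 upstream: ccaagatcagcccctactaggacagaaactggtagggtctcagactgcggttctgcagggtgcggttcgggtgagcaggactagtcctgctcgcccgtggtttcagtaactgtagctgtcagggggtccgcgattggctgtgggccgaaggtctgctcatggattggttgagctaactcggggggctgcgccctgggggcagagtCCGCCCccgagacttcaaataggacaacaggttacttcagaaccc
The Acta2 boxes lie 84 to 75 and 34 to 25 bases before its RefSeq start. The deposited position of Acta2 runs to base 34255590, so most of this window, both boxes included, lies inside the gene as annotated there. The Eng box lies 203 to 194 bases before the Eng start, and the AGGAAG copies lie 52 to 47 and 6 to 1 bases before it. The GC box of Cldn5 lies 45 to 40 bases before its start. RefSeq promoters were at hand for 23 of the 37 members. A member was counted if any of its promoters matched, whereas the percentages are of single promoters, so these are unlike measures. A CArG box with 1 G or C in its core was in 6 of those 23 and in 7.24% of 32851 mouse promoters of the same length. AGGAAG was in 9 of 23 and 29.5% of all promoters, GGGCGG in 10 of 23 and 32.7%, and TATAAA in 4 of 23 and 12.4%. A strict CArG box was in 0 of 23 and 1.47% of all promoters. The motifs were chosen with these sequences in view, and a match is a description of letters.

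Total counts ran from 16582086 to 19170969 per library, and 2 libraries stood apart from the rest. WT vehicle replicate 3 had 5.04% of its counts in mitochondrial genes, against 2.28 to 2.86% in the other 8 libraries. 3xTg vehicle replicate 2 had 812 CPM (counts scaled to library size, adjusted by TMM) summed over 7 striatal and thalamic genes, against 55.8 to 119 CPM in the other 8 libraries. Its 6 striatal genes carried this sum. The thalamic gene Tcf7l2 stood at 26.6 CPM in that library, and was highest in WT vehicle replicate 3 at 54.3 CPM. The 14 choroid plexus genes summed to 1550, 2770 and 48.8 CPM in LP-10d 3xTg libraries, 980, 142 and 56.6 CPM in 3xTg vehicle libraries and 68.3, 4610 and 2520 CPM in WT vehicle libraries. These sums differed by more than 10 times between libraries of the same group in all 3 groups. Choroid plexus is vascular tissue that adjoins the hippocampus, and its part in the vessel values was tested only by a covariate fit, described with the fibroblast genes.

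WT vehicle replicate 3 stood apart among the vessel genes themselves. It was the lowest of the 9 libraries for 11 of 36 tested members and the highest for 11 others. The share of all genes at either end in WT vehicle replicate 3 was not counted. Against the mean of the other WT vehicle libraries, 8 members stood at or under 0.8 of it in replicate 3 and 7 at or over 1.25. Egfl7, a secreted endothelial protein, stood at 0.495 of that mean, the phospholipid transfer protein gene Pltp at 0.555, the tight junction gene Cldn5 at 0.561 and Itm2a, a membrane protein gene, at 0.570. Emcn, which encodes the sialoglycoprotein endomucin, stood at 2.16 of it, and Sox18 and Lum at 1.67 each. Genes of the same endothelial cells were thus at both ends of the range in this library. The median coefficient of variation of the members was 11.5% in LP-10d 3xTg, 12.5% in 3xTg vehicle and 18.2% in WT vehicle libraries, against 8.15%, 9.03% and 16.1% over all genes tested.

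**Figure D1:**
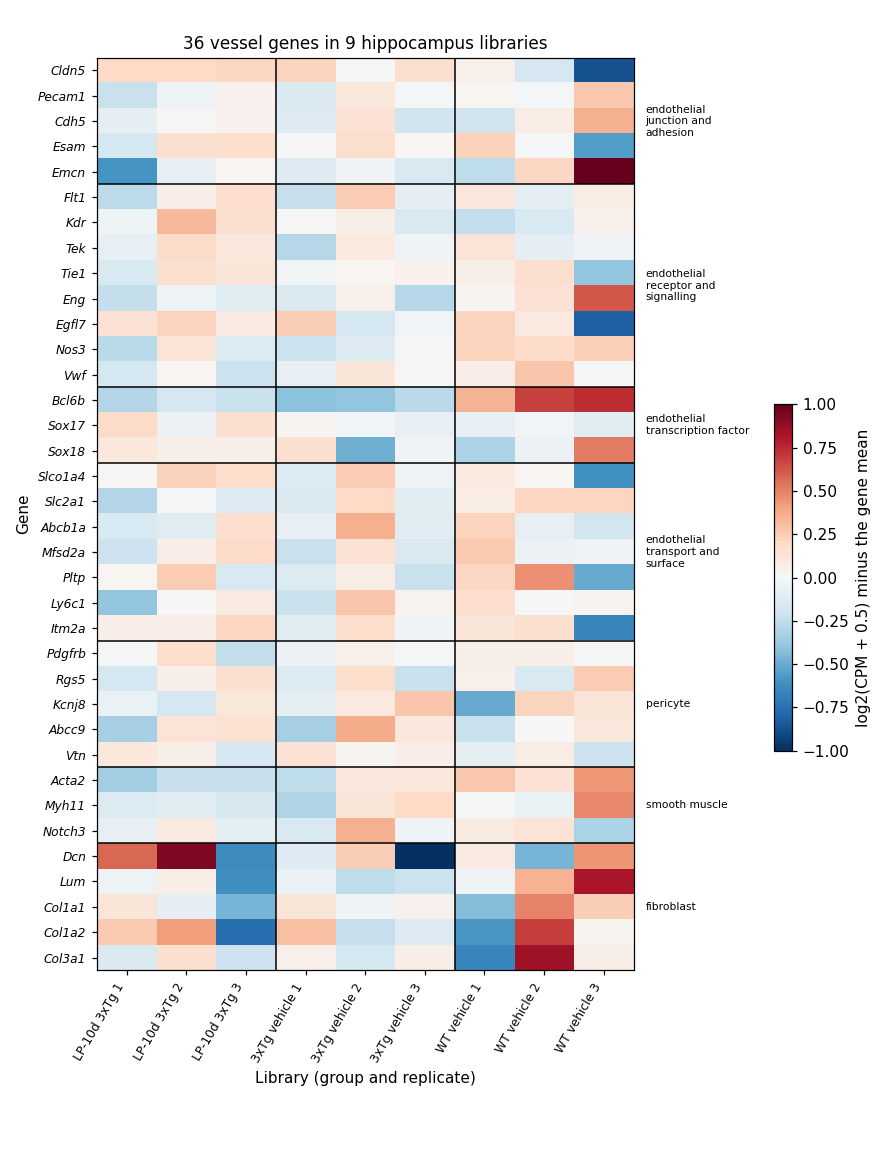
Level of the 36 tested vessel genes (rows, grouped by role) in the 9 libraries (columns), as log2(CPM + 0.5) minus the gene's mean over all libraries; red is above and blue below that mean, and values beyond 1 in either direction take the end colour. WT vehicle replicate 3 holds the lowest value of 11 rows and the highest of 11, and Bcl6b is blue in all 6 3xTg libraries and red in all 3 WT vehicle libraries.

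Per transcript length, the members spanned a wide range of levels. The highest mean over the 9 libraries was that of Vtn, the pericyte-enriched gene of vitronectin, at 40.8 FPKM (counts scaled to gene length and library total). Pltp followed at 29.5 FPKM, Cldn5 at 28.7 FPKM, the glucose transporter gene Slc2a1 at 24.5 FPKM and Itm2a at 17.9 FPKM. The lowest among the tested members was the collagen gene Col3a1 at 0.232 FPKM, and Tagln stood at 0.0492 FPKM. Defining genes of each class were therefore present: Cldn5 for endothelium, Pdgfrb at 7.62 FPKM for pericytes, Acta2 at 6.53 FPKM for smooth muscle and Dcn at 4.97 FPKM for fibroblasts. Tagln shares 3627 bases with the antisense gene Gm48529, which had 2 to 9 counts, and 108 bases with Pcsk7, and the strand setting of the counting is not given.

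The first question was how vessel genes stand in the untreated model. In 3xTg vehicle against WT vehicle, 0 of 36 members passed edgeR's adjusted threshold of 0.05, where 0.00575% of all genes tested did (1 gene). DESeq2 called 1 member, Bcl6b, beside 351 of 17396 genes in all, and limma-voom called 0 members. At an unadjusted p under 0.05 there were 5 members, all lower in 3xTg vehicle, which is 5 of 36 beside a background of 14.1%. Libraries of the groups did not overlap for 4 members (Bcl6b, Nos3, Acta2 and Lum, all lower), beside 17.4% of all genes. The fold change was above 0 for 13 members and below 0 for 23, with a median log2 fold change of -0.10 and a range of -1.14 to 0.41. Over all genes tested, 49.8% lay below 0, with a median log2 fold change of 0.0007. The members' shares at an unadjusted p under 0.05 and without overlap lay at or below the background. Their share below 0 lay above that of all genes, a difference that was not tested.

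The second question was what LP-10d does to them. In LP-10d 3xTg against 3xTg vehicle, 0 of 36 members passed edgeR's adjusted threshold, as did 0% of all genes. DESeq2 and limma-voom also called 0 members. At an unadjusted p under 0.05 there were 0 members, where 2.9% of all genes lay under it, and 0 members had groups without overlap, where 11.6% of all genes did. The fold change was above 0 for 18 members and below 0 for 18, with a median log2 fold change of 0.00 and a range of -0.28 to 0.66.

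Treated mice were also set against WT. In LP-10d 3xTg against WT vehicle, 0 members passed edgeR's adjusted threshold, as did 0% of all genes, and DESeq2 and limma-voom called 0 members. Fold changes were above 0 for 12 members and below 0 for 24, beside 50.5% of all genes, with a median log2 fold change of -0.04. There were 7 of 36 members at an unadjusted p under 0.05, 1 higher and 6 lower, beside 8.75% of all genes. Groups did not overlap for 7 members, beside 14.4% of all genes: Cldn5 was higher in every LP-10d 3xTg library, and Eng, Nos3, Bcl6b, Slc2a1, Acta2 and Myh11 were lower. With both 3xTg groups averaged against WT vehicle, 0 members passed edgeR's adjusted threshold, as did 0% of all genes. DESeq2 called 2, Bcl6b and Acta2, beside 319 of 17396 genes in all, and limma-voom called 0 members. At an unadjusted p under 0.05 there were 8 members, 1 higher and 7 lower, beside 14.8% of all genes, and 3 members (Nos3, Bcl6b and Acta2, all lower) did not overlap, beside 6.93%. The members' shares at an unadjusted p under 0.05 lay above the background in both comparisons, a difference that was not tested. These comparisons share libraries and are given side by side, not as repeats of each other.

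**Figure D2:**
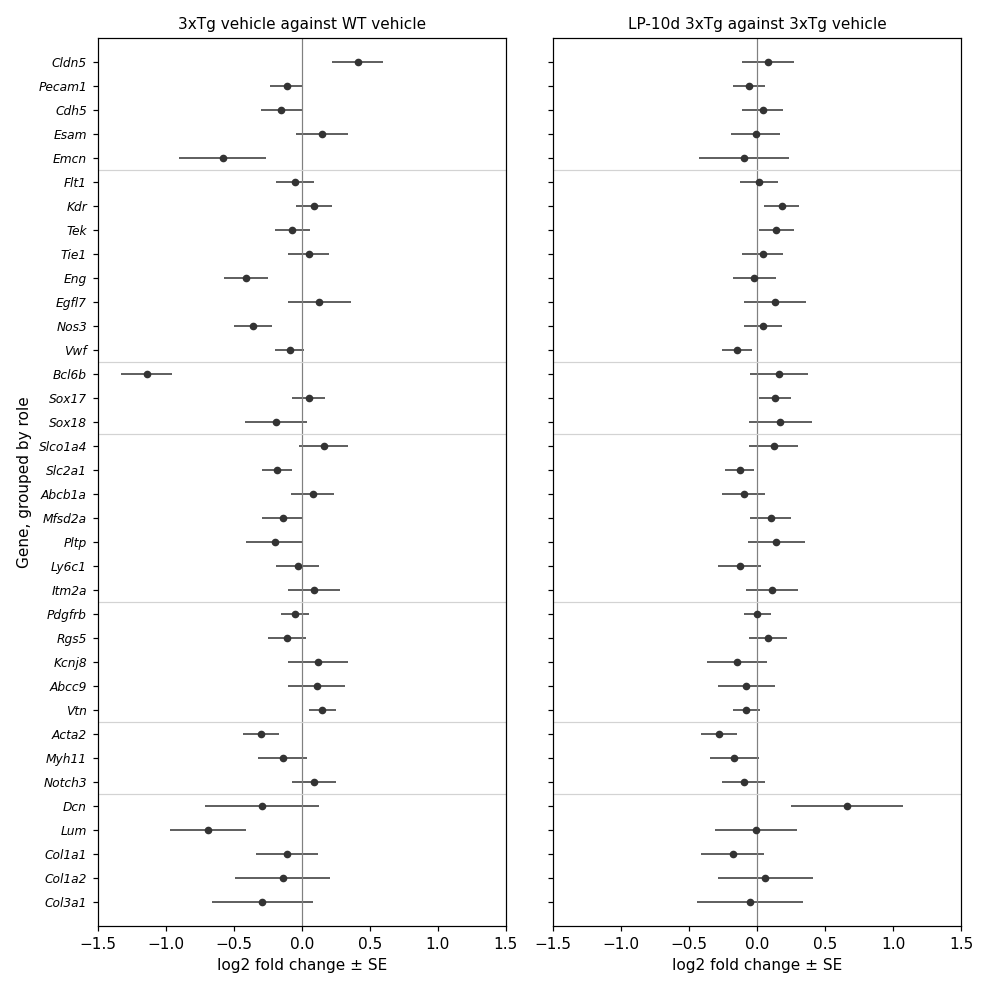
Log2 fold change with its standard error for the 36 tested vessel genes, grouped by role from endothelial junctions at the top to fibroblasts at the bottom, in 3xTg vehicle against WT vehicle (left) and LP-10d 3xTg against 3xTg vehicle (right), edgeR. Bcl6b lies lowest on the left at -1.14, and Dcn lies highest on the right at 0.66 with the widest error, 0.41.

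Among the endothelial transcription factors, Bcl6b had the smallest p of all 36 members. Bcl6b encodes a zinc-finger repressor found in endothelial cells. It had 1.81, 2.02 and 1.92 CPM in LP-10d 3xTg libraries, 1.63, 1.65 and 1.85 CPM in 3xTg vehicle libraries and 3.08, 4.04 and 4.23 CPM in WT vehicle libraries. Every 3xTg library lay below every WT vehicle library, and the treated and untreated 3xTg libraries overlapped. Behind these levels were 32, 34 and 35 counts in LP-10d 3xTg, 31, 29 and 34 counts in 3xTg vehicle and 54, 77 and 76 counts in WT vehicle libraries. The fold change was, on the log2 scale, -1.14 ± 0.19 (SE) in 3xTg vehicle against WT vehicle, a level 0.452 times that of WT vehicle, with an edgeR adjusted p of 0.0844. In LP-10d 3xTg against WT vehicle it was -0.98 ± 0.18 with an edgeR adjusted p of 0.416, and for all 3xTg it was -1.06 ± 0.16 with an edgeR adjusted p of 0.106. LP-10d 3xTg against 3xTg vehicle gave 0.16 ± 0.21. DESeq2 put Bcl6b at an adjusted p of 0.00412 in 3xTg vehicle against WT vehicle and 0.0012 for all 3xTg, and its adjusted p over all alternatives ran from 0.00412 to 0.29 and from 0.0012 to 0.285 in those 2 comparisons. Leaving out any 1 library, WT vehicle replicate 3 included, kept the first fold change between -1.27 and -1.07.

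The Sox genes beside it in this role, factors that act in arterial and lymphatic vessel development, did not share that pattern. Sox18 had 8.97, 8.66 and 8.67 CPM in LP-10d 3xTg libraries, 9.37, 5.79 and 8.11 CPM in 3xTg vehicle libraries and 6.57, 7.97 and 12.1 CPM in WT vehicle libraries. Its highest library was WT vehicle replicate 3 and its lowest 3xTg vehicle replicate 2, and all groups overlapped. Without WT vehicle replicate 3, Sox18 had a log2 fold change of 0.09 in 3xTg vehicle against WT vehicle. The log2 fold changes of Sox18 and Sox17 were -0.19 ± 0.23 and 0.05 ± 0.12 in 3xTg vehicle against WT vehicle, and 0.17 ± 0.23 and 0.13 ± 0.12 in LP-10d 3xTg against 3xTg vehicle. Sox17 kept within 7.90 to 9.82 CPM over all 9 libraries.

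**Figure D3:**
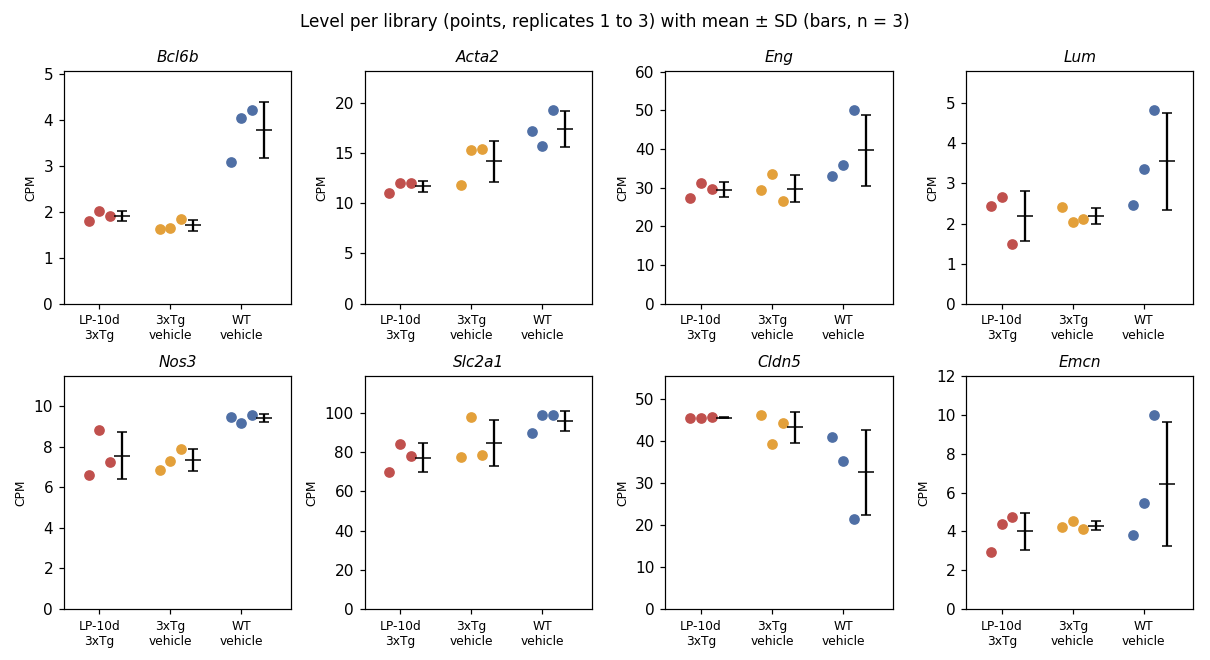
CPM in each library (points, replicates 1 to 3 from left to right) with the group mean and SD (bars, n = 3) for the 8 vessel genes with the smallest p in any comparison; LP-10d 3xTg is red, 3xTg vehicle orange and WT vehicle blue. Bcl6b and Nos3 separate all 6 3xTg libraries from all 3 WT vehicle libraries, as does Acta2, and in Eng, Lum, Cldn5 and Emcn the WT vehicle replicate 3 point lies at the edge of its group.

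Of the 8 endothelial receptor and signalling genes, the angiopoietin and VEGF receptors had smaller fold changes than Eng and Nos3 in 3xTg vehicle against WT vehicle. Eng encodes endoglin, a TGF-beta family co-receptor of endothelium. It had 27.4, 31.2 and 29.8 CPM in LP-10d 3xTg libraries, 29.3, 33.6 and 26.5 CPM in 3xTg vehicle libraries and 33.1, 35.8 and 50.2 CPM in WT vehicle libraries. WT vehicle replicate 3 was the highest, and one 3xTg vehicle library reached above the lowest WT vehicle library. The fitted log2 fold change was -0.41 ± 0.16 in 3xTg vehicle against WT vehicle (edgeR adjusted p = 0.298), and -0.43 ± 0.16 in LP-10d 3xTg against WT vehicle (edgeR adjusted p = 0.568). Without WT vehicle replicate 3 they were -0.22 and -0.23.

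Nos3, the endothelial nitric oxide synthase, had 6.60, 8.83 and 7.25 CPM in LP-10d 3xTg libraries, 6.84, 7.32 and 7.90 CPM in 3xTg vehicle libraries and 9.48, 9.17 and 9.57 CPM in WT vehicle libraries. All 6 3xTg libraries lay below the 3 WT vehicle libraries, which were within 9.41 ± 0.209 CPM (SD, n = 3). The log2 fold change was -0.36 ± 0.14 in 3xTg vehicle against WT vehicle (edgeR adjusted p = 0.304) and -0.34 ± 0.12 for all 3xTg (edgeR adjusted p = 0.264). LP-10d 3xTg against 3xTg vehicle gave 0.04 ± 0.14. Without WT vehicle replicate 3 the first value was -0.35, nearly as large. Nos3 shares 17423 bases with the antisense gene Gm15587, which had 7 to 22 counts. It shares 294 bases with Atg9b on the opposite strand, which had 74 to 121 counts, and the strand setting of the counting is not given.

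The VEGF receptors Flt1 and Kdr had log2 fold changes of -0.05 ± 0.14 and 0.09 ± 0.13 in 3xTg vehicle against WT vehicle, and of 0.01 ± 0.14 and 0.18 ± 0.13 in LP-10d 3xTg against 3xTg vehicle. Kdr averaged 19.1 ± 2.46 CPM in LP-10d 3xTg, 16.8 ± 1.35 CPM in 3xTg vehicle and 15.8 ± 1.69 CPM in WT vehicle libraries (SD, n = 3 each). Its groups overlapped in all comparisons. The angiopoietin receptor Tek and the related orphan receptor Tie1 gave -0.07 ± 0.13 and 0.05 ± 0.15 in 3xTg vehicle against WT vehicle. Vwf, the clotting factor carrier stored in endothelium, averaged 32.1 ± 2.90 CPM in LP-10d 3xTg, 35.5 ± 2.45 CPM in 3xTg vehicle and 37.8 ± 4.19 CPM in WT vehicle libraries. For LP-10d 3xTg against WT vehicle the log2 fold change of Vwf was -0.24 ± 0.11 (edgeR adjusted p = 0.569). In 3xTg vehicle against WT vehicle Egfl7 gave 0.13 ± 0.23, with its lowest level, 9.46 CPM, in WT vehicle replicate 3, and -0.15 without that library.

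Of the 5 junction and adhesion genes, Cldn5 and Emcn had fold changes of opposite sign, and both values depended on the same WT vehicle library. Cldn5 encodes claudin-5, the main sealing protein of the barrier's tight junctions. It had 45.5, 45.6 and 45.8 CPM in LP-10d 3xTg libraries, 46.3, 39.3 and 44.3 CPM in 3xTg vehicle libraries and 41.1, 35.2 and 21.4 CPM in WT vehicle libraries. The treated libraries lay within 1 CPM of each other, and WT vehicle replicate 3 stood well below the other 8 libraries. Its log2 fold change was 0.41 ± 0.19 in 3xTg vehicle against WT vehicle (edgeR adjusted p = 0.361) and 0.49 ± 0.19 in LP-10d 3xTg against WT vehicle (edgeR adjusted p = 0.569). Without WT vehicle replicate 3 the values were 0.18 and 0.26. LP-10d 3xTg against 3xTg vehicle gave 0.08 ± 0.19.

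Emcn had 2.93, 4.39 and 4.72 CPM in LP-10d 3xTg libraries, 4.21, 4.54 and 4.14 CPM in 3xTg vehicle libraries and 3.83, 5.45 and 10.0 CPM in WT vehicle libraries. The lowest of the 9 libraries was LP-10d 3xTg, and 2 of the 3 WT vehicle libraries lay above all 3xTg libraries. The fitted log2 fold change was -0.58 ± 0.32 in 3xTg vehicle against WT vehicle (edgeR adjusted p = 0.43), and -0.12 without WT vehicle replicate 3. The platelet and endothelial adhesion molecule Pecam1, the adherens junction cadherin Cdh5 and the adhesion molecule Esam gave -0.11 ± 0.12, -0.15 ± 0.15 and 0.15 ± 0.19. The 5 genes lay between -0.10 and 0.08 in LP-10d 3xTg against 3xTg vehicle.

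The 7 endothelial transport and surface genes had a median log2 fold change of -0.03 in 3xTg vehicle against WT vehicle, within -0.20 to 0.16. Slc2a1, the barrier's glucose transporter GLUT1, had 69.7, 84.2 and 78.1 CPM in LP-10d 3xTg libraries, 77.4, 98.2 and 78.8 CPM in 3xTg vehicle libraries and 89.9, 99.1 and 99.0 CPM in WT vehicle libraries. All 3 treated libraries lay below all WT vehicle libraries, and the 3xTg vehicle libraries overlapped both other groups. The log2 fold change was -0.31 ± 0.11 in LP-10d 3xTg against WT vehicle (edgeR adjusted p = 0.568), -0.18 ± 0.11 in 3xTg vehicle against WT vehicle and -0.13 ± 0.11 in LP-10d 3xTg against 3xTg vehicle.

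Pltp, the member of this role with the highest FPKM, had 75.2, 88.6 and 66.6 CPM in LP-10d 3xTg libraries, 67.2, 78.0 and 63.6 CPM in 3xTg vehicle libraries and 85.7, 102 and 52.1 CPM in WT vehicle libraries. Pltp shares 1515 bases with Ctsa on the opposite strand, which had 1757 to 2489 counts, and the strand setting of the counting is not given. WT vehicle libraries held both the highest and the lowest value of Pltp. Its log2 fold change was -0.20 ± 0.21 in 3xTg vehicle against WT vehicle (0.01 if replicate 2 of WT vehicle was left out and -0.44 if replicate 3 was) and 0.14 ± 0.21 in LP-10d 3xTg against 3xTg vehicle. The efflux pump Abcb1a, the organic anion transporter Slco1a4 and the lipid transporter Mfsd2a gave 0.08 ± 0.16, 0.16 ± 0.18 and -0.14 ± 0.15 in 3xTg vehicle against WT vehicle. Reads of Abcb1a, Slco1a4 and the surface antigen gene Ly6c1 could be shared with close relatives: Abcb1b had 75 to 105 counts, Slco1a5 0 to 25 and Ly6c2 1 to 7. Ly6c1 and Itm2a gave -0.03 ± 0.16 and 0.09 ± 0.19.

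The 5 pericyte genes had the lowest median ratio of the highest to the lowest library of any role, 1.40, against 1.58 over all genes tested. Their median coefficient of variation was 11.6% in LP-10d 3xTg, 14.5% in 3xTg vehicle and 12.2% in WT vehicle libraries. By that measure the endothelial receptor and signalling genes were steadier, at 10.7%, 10% and 10.9%. Summed, the pericyte genes stood at 194 to 213 CPM in LP-10d 3xTg libraries, 197 to 216 CPM in 3xTg vehicle libraries and 198 to 204 CPM in WT vehicle libraries. Their log2 fold changes lay within -0.11 to 0.15 in 3xTg vehicle against WT vehicle and within -0.15 to 0.08 in LP-10d 3xTg against 3xTg vehicle. Vtn had 88.9, 86.0 and 72.8 CPM in LP-10d 3xTg libraries, 91.2, 84.1 and 86.6 CPM in 3xTg vehicle libraries and 77.3, 86.7 and 71.3 CPM in WT vehicle libraries. These groups overlapped, and the log2 fold change was 0.15 ± 0.10 in 3xTg vehicle against WT vehicle. Pdgfrb, the PDGF-B receptor that recruits pericytes to vessels, averaged 41.2 ± 5.89 CPM in LP-10d 3xTg, 41.3 ± 1.60 CPM in 3xTg vehicle and 42.8 ± 1.07 CPM in WT vehicle libraries (SD, n = 3 each). Rgs5, a regulator of G-protein signalling, gave -0.11 ± 0.14 in 3xTg vehicle against WT vehicle.

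Kcnj8 and Abcc9 encode the pore and the sulfonylurea receptor of the vascular ATP-sensitive potassium channel and lie side by side on chromosome 6, 16.2 kb apart with 0 protein-coding genes between them. Kcnj8 averaged 4.15 ± 0.472 CPM in LP-10d 3xTg, 4.61 ± 0.668 CPM in 3xTg vehicle and 4.22 ± 1.2 CPM in WT vehicle libraries. Abcc9 averaged 8.01 ± 1.52 CPM in LP-10d 3xTg, 8.47 ± 2.13 CPM in 3xTg vehicle and 7.83 ± 0.954 CPM in WT vehicle libraries (SD, n = 3 each). Neither separated any pair of groups. Their log2 fold changes were 0.12 ± 0.22 and 0.11 ± 0.21 in 3xTg vehicle against WT vehicle, and -0.15 ± 0.22 and -0.08 ± 0.21 in LP-10d 3xTg against 3xTg vehicle.

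Of the smooth muscle genes, Acta2 had the second smallest p among the members. It encodes the alpha actin of smooth muscle, and its upstream sequence carries the 2 CArG boxes shown earlier. It had 11, 12 and 12 CPM in LP-10d 3xTg libraries, 11.8, 15.3 and 15.4 CPM in 3xTg vehicle libraries and 17.2, 15.7 and 19.3 CPM in WT vehicle libraries. All 6 3xTg libraries lay below all WT vehicle libraries, and 1 of the 3xTg vehicle libraries lay within the range of the treated ones. The fitted log2 fold change was -0.57 ± 0.13 in LP-10d 3xTg against WT vehicle (edgeR adjusted p = 0.487), a level 0.671 times that of WT vehicle. It was -0.30 ± 0.13 in 3xTg vehicle against WT vehicle, with an edgeR adjusted p of 0.351, and -0.18 without 3xTg vehicle replicate 1. In LP-10d 3xTg against 3xTg vehicle it was -0.28 ± 0.13, with an edgeR adjusted p of 1. For all 3xTg it was -0.44 ± 0.11 with an edgeR adjusted p of 0.189, against 0.0491 by DESeq2 and 0.0491 to 0.384 over the alternatives. Without WT vehicle replicate 3 the value for LP-10d 3xTg against WT vehicle was -0.49, and for all 3xTg it was -0.36.

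Myh11, the smooth muscle myosin heavy chain, averaged 11.5 ± 0.243 CPM in LP-10d 3xTg, 12.9 ± 2.43 CPM in 3xTg vehicle and 14.2 ± 3.23 CPM in WT vehicle libraries (SD, n = 3 each). Its treated libraries did not overlap WT vehicle, but the log2 fold change of -0.30 ± 0.18 had an unadjusted edgeR p of 0.124. It was -0.17 ± 0.18 in LP-10d 3xTg against 3xTg vehicle. Notch3, the receptor that maintains arterial smooth muscle, gave 0.09 ± 0.16 in 3xTg vehicle against WT vehicle and -0.10 ± 0.16 in LP-10d 3xTg against 3xTg vehicle. Tagln had too few counts for a fold change.

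By the median ratio of the highest to the lowest library the 5 fibroblast genes varied most, at 3.27, and they varied within the LP-10d 3xTg and WT vehicle groups. Their median coefficient of variation was 28.6% in LP-10d 3xTg, 10.8% in 3xTg vehicle and 33.9% in WT vehicle libraries. In 3xTg vehicle libraries it lay below the 12.5% of all members, and smooth muscle genes had 18.8%. Dcn encodes decorin, a small proteoglycan of collagen fibrils. It had 40.1, 51.5 and 17.1 CPM in LP-10d 3xTg libraries, 24.4, 31.8 and 12.6 CPM in 3xTg vehicle libraries and 28.4, 19.2 and 36.4 CPM in WT vehicle libraries. The highest and the second lowest library were both LP-10d 3xTg, so the groups overlapped throughout. The log2 fold change of Dcn, 0.66 ± 0.41 in LP-10d 3xTg against 3xTg vehicle, was the largest of any member in that comparison and had an unadjusted edgeR p of 0.142. It was 1.0 without LP-10d 3xTg replicate 3, 0.32 without LP-10d 3xTg replicate 2, 0.37 without 3xTg vehicle replicate 3 and 0.41 with the choroid plexus score as a covariate.

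Lum, the gene of the related proteoglycan lumican, neighbours Dcn on chromosome 10, 47.0 kb away with 0 protein-coding genes between. It had 2.43, 2.67 and 1.48 CPM in LP-10d 3xTg libraries, 2.42, 2.04 and 2.12 CPM in 3xTg vehicle libraries and 2.46, 3.35 and 4.84 CPM in WT vehicle libraries. Every 3xTg vehicle library lay below every WT vehicle library, the nearest pair by a small margin, and the treated libraries overlapped WT vehicle. The log2 fold change was -0.69 ± 0.28 in 3xTg vehicle against WT vehicle (edgeR adjusted p = 0.321), and -0.41 without WT vehicle replicate 3. It was -0.01 ± 0.30 in LP-10d 3xTg against 3xTg vehicle, where Dcn stood at 0.66. The fibrillar collagen genes Col1a1, Col1a2 and Col3a1 gave -0.11 ± 0.23, -0.14 ± 0.35 and -0.29 ± 0.37 in 3xTg vehicle against WT vehicle.

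The fibroblast genes summed to 76.8, 89.6 and 38.1 CPM in LP-10d 3xTg libraries, 62.0, 60.9 and 43.9 CPM in 3xTg vehicle libraries and 51.2, 70.1 and 74.1 CPM in WT vehicle libraries. The 3 libraries with the lowest sums, LP-10d 3xTg replicate 3, 3xTg vehicle replicate 3 and WT vehicle replicate 1, were also the 3 with the lowest choroid plexus sums. With the choroid plexus score as a covariate the median log2 fold change of the fibroblast genes in 3xTg vehicle against WT vehicle was 0.17, against -0.29 without it, and it was 0.10 without WT vehicle replicate 2. The part of meningeal tissue in these values was not tested. The smooth muscle genes summed to 50 to 55 CPM in LP-10d 3xTg libraries, 48.1 to 66.7 CPM in 3xTg vehicle libraries and 60.1 to 60.8 CPM in WT vehicle libraries.

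**Figure D4:**
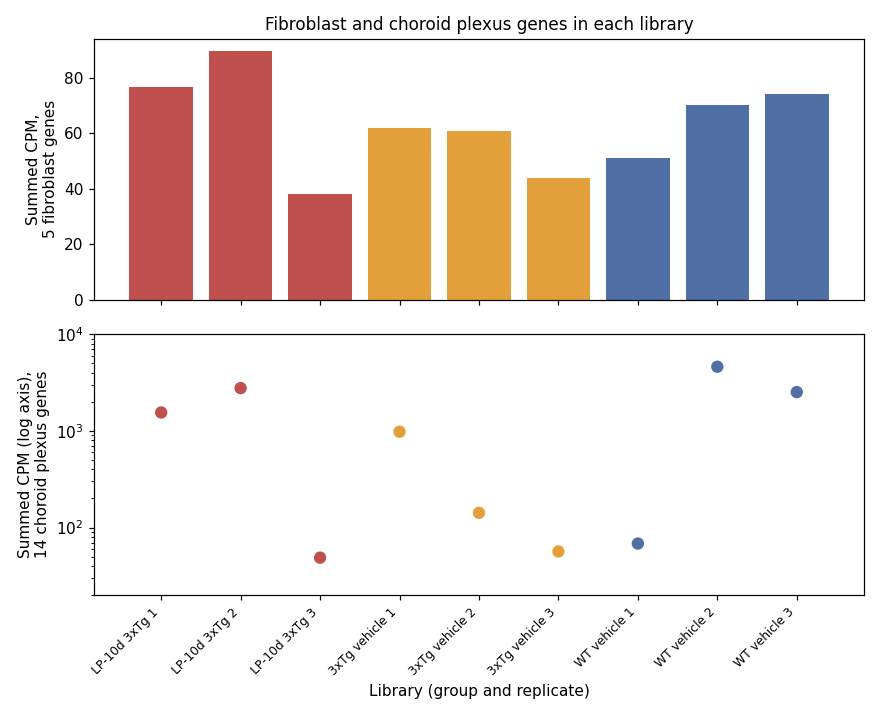
Summed CPM of the 5 fibroblast genes (upper panel, linear axis from 0) and of the 14 choroid plexus genes (lower panel, log axis) in each of the 9 libraries; red is LP-10d 3xTg, orange 3xTg vehicle and blue WT vehicle. LP-10d 3xTg replicate 3, 3xTg vehicle replicate 3 and WT vehicle replicate 1 are the 3 lowest in both panels.

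The other genes of the vessel wall were read from 9 further lists, of which 131 of 137 genes were tested and 0 passed edgeR's adjusted threshold in any comparison. In 3xTg vehicle against WT vehicle, 30 of 131 had an unadjusted p under 0.05, 8 higher and 22 lower, beside 14.1% of all genes. Fold changes were below 0 for 80 of the 131, beside 49.8% of all genes, with a median log2 fold change of -0.09. In LP-10d 3xTg against 3xTg vehicle, 9 had an unadjusted p under 0.05, 3 higher and 6 lower, beside 2.9%, with a median of 0.00. For all 3xTg, 33 had an unadjusted p under 0.05, 10 higher and 23 lower, beside 14.8%, with a median of -0.10. Groups did not overlap for 23 of the 131 in 3xTg vehicle against WT vehicle, beside 17.4% of all genes. They did not overlap for 13 in LP-10d 3xTg against 3xTg vehicle, beside 11.6%, and for 9 with all 3xTg, beside 6.93%. The median over all genes tested lay within 0.001 of 0 in these comparisons.

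Among 21 tested growth ligands and receptors, groups did not overlap for 4 genes in 3xTg vehicle against WT vehicle, beside 17.4% of all genes. In LP-10d 3xTg against 3xTg vehicle groups did not overlap for 4, beside 11.6%. Vegfa, Nrp1 and Nrp2 were among them in both. Where the shared 3xTg vehicle libraries are the extreme ones, the 2 comparisons must have opposite signs, so those signs are not a separate result. Vegfa, the VEGF ligand made largely by brain tissue around vessels, had 85.8, 84.4 and 80.7 CPM in LP-10d 3xTg libraries, 99.2, 103 and 111 CPM in 3xTg vehicle libraries and 83.5, 96.7 and 93.9 CPM in WT vehicle libraries. Nrp1, a VEGF and semaphorin co-receptor also made by neurons, had 62.9, 58.9 and 63.1 CPM in LP-10d 3xTg libraries, 52.3, 40.6 and 51.7 CPM in 3xTg vehicle libraries and 67.3, 55.7 and 67.9 CPM in WT vehicle libraries. Nrp2, its relative, had 78.0, 101 and 74.8 CPM in LP-10d 3xTg libraries, 73.2, 63.2 and 60.6 CPM in 3xTg vehicle libraries and 92.0, 88.2 and 93.0 CPM in WT vehicle libraries. The 3xTg vehicle libraries were the highest of the 9 for Vegfa and the lowest for Nrp1 and Nrp2. The log2 fold changes in LP-10d 3xTg against 3xTg vehicle were -0.32 ± 0.08 for Vegfa, 0.35 ± 0.12 for Nrp1 and 0.36 ± 0.12 for Nrp2, each with an edgeR adjusted p of 1. In 3xTg vehicle against WT vehicle they were 0.20 ± 0.08, -0.40 ± 0.12 and -0.47 ± 0.12, with edgeR adjusted p of 0.333, 0.215 and 0.172. 3xTg vehicle replicate 2, the library with high striatal genes, held the lowest Nrp1 value. Without it the log2 fold change of Nrp1 was 0.24 in LP-10d 3xTg against 3xTg vehicle and -0.29 in 3xTg vehicle against WT vehicle. Nrp2 gave 0.22 in LP-10d 3xTg against 3xTg vehicle without LP-10d 3xTg replicate 2.

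Of 14 further endothelial transcription factors, 10 had fold changes below 0 in 3xTg vehicle against WT vehicle, beside 49.8% of all genes. Their median log2 fold change was -0.28. This list's mean score, in log2 units from each gene's mean, was 0.42 in WT vehicle replicate 3 and within -0.23 to 0.11 in the other 8 libraries. Part of that score came from Lef1, with 19.1 CPM in WT vehicle replicate 3 and 2.86 to 7.95 CPM in the other 8 libraries. Without WT vehicle replicate 3 the median was -0.14 and 9 of the 14 were below 0. Epas1, the hypoxia-inducible factor HIF-2-alpha, had 165, 179 and 164 CPM in LP-10d 3xTg libraries, 154, 177 and 165 CPM in 3xTg vehicle libraries and 214, 193 and 195 CPM in WT vehicle libraries. Every 3xTg library lay below every WT vehicle library, as for Bcl6b. Its log2 fold change was -0.28 ± 0.08 in 3xTg vehicle against WT vehicle (edgeR adjusted p = 0.218) and -0.26 ± 0.07 for all 3xTg (edgeR adjusted p = 0.201). Klf4, a flow-responsive Krüppel-like factor, gave -0.69 ± 0.22 in 3xTg vehicle against WT vehicle (edgeR adjusted p = 0.242). All its 3xTg libraries lay below all WT vehicle libraries, the nearest pair at 6.64 CPM in LP-10d 3xTg and 6.66 CPM in WT vehicle.

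Of 20 further barrier junction and transporter genes, 5 were lower at an unadjusted p under 0.05 in 3xTg vehicle against WT vehicle and 0 higher, beside 14.1% of all genes. Among them were the efflux transporter gene Abcc4 at -0.33 ± 0.10 and the tight junction gene Ocln at -0.49 (-0.31 without WT vehicle replicate 2). The median log2 fold change of the 20 genes was -0.17. It was -0.28 without WT vehicle replicate 1, -0.08 without replicate 2 and -0.08 without replicate 3. Among 8 tested caveolar and adhesion genes, the caveolin gene Cav2 gave 0.61 ± 0.19, with 7.95 CPM in WT vehicle replicate 3 as the lowest of 9, and 0.38 without that library. In the Wnt list, whose ligands from brain cells maintain the barrier, Wnt7a had a log2 fold change of 0.39 ± 0.12 in LP-10d 3xTg against 3xTg vehicle (edgeR adjusted p = 1). It had 21.7, 20.3 and 18.2 CPM in LP-10d 3xTg libraries, 14.3, 17.7 and 14 CPM in 3xTg vehicle libraries and 15.2, 16.4 and 16.4 CPM in WT vehicle libraries. All treated libraries lay above the other 6. Against 3xTg vehicle, it was the 1 gene of 13 in this list without overlap, beside 11.6% of all genes.

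The further smooth muscle genes had 7 of 9 fold changes below 0 in LP-10d 3xTg against 3xTg vehicle, beside 50.1% of all genes, and Acta2, Myh11 and Notch3 were also below 0. Beta tropomyosin, Tpm2, had 4.29, 4.62 and 5.05 CPM in LP-10d 3xTg libraries, 6.10, 10.4 and 6.81 CPM in 3xTg vehicle libraries and 4.23, 5.45 and 7.12 CPM in WT vehicle libraries, a log2 fold change of -0.73 ± 0.24 against 3xTg vehicle and of -0.47 without 3xTg vehicle replicate 2. The muscle filament gene Des gave -0.66 ± 0.24 and calponin, Cnn1, -1.0 ± 0.43, the last at under 1 CPM in every library. Each had an edgeR adjusted p of 1. The lowest 3xTg vehicle library lay above the highest treated library for Tpm2 and Des, 2 of the 9 genes. Over all genes, 11.6% had no overlap between these groups. The median log2 fold change of the 9 genes was -0.06.

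The 19 further fibroblast and meningeal genes were mixed in 3xTg vehicle against WT vehicle, with 5 higher and 3 lower at an unadjusted p under 0.05, beside 14.1% of all genes. Col6a2, a chain of the collagen VI microfibril, had 30.6, 31.9 and 20.6 CPM in LP-10d 3xTg libraries, 27.3, 36.5 and 32.5 CPM in 3xTg vehicle libraries and 21.2, 16.3 and 16.1 CPM in WT vehicle libraries. It was above WT vehicle in all 3xTg vehicle libraries, and 1 treated library overlapped WT vehicle. Its log2 fold change was 0.84 ± 0.18 in 3xTg vehicle against WT vehicle (edgeR adjusted p = 0.117), where its partner chain Col6a3 gave -1.25 ± 0.43 (edgeR adjusted p = 0.271). Col6a3 had 9.03, 9.96 and 6.97 CPM in LP-10d 3xTg libraries, 8.94, 10.1 and 4.68 CPM in 3xTg vehicle libraries and 9.65, 33.1 and 13.4 CPM in WT vehicle libraries. WT vehicle replicate 2, which also had the highest choroid plexus sum, stood above all the others, and without it the log2 fold change was -0.55. The fibril-regulating collagen gene Col5a1 gave 0.91 ± 0.27 (0.55 without 3xTg vehicle replicate 3), and biglycan, Bgn, -0.85 ± 0.29 (-0.53 without WT vehicle replicate 3). Of 15 basement membrane genes, 1 was higher and 3 lower at an unadjusted p under 0.05, beside 14.1% of all genes: the laminin chain Lama4 gave 0.58 ± 0.17, and Lamb1, the perlecan gene Hspg2 and Nid2 gave -0.30, -0.60 and -1.10. Nid2, a nidogen, had 11.5, 16.5 and 6.37 CPM in LP-10d 3xTg libraries, 10.4, 6.58 and 5.23 CPM in 3xTg vehicle libraries and 6.11, 20 and 21.6 CPM in WT vehicle libraries. In every group its library with the lowest choroid plexus sum was also its lowest, as for Hspg2, whose WT vehicle libraries stood at 29.1, 48.1 and 42.7 CPM. The fit with the choroid plexus score as a covariate was not read out for Nid2 and Hspg2.

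Red cell and perivascular macrophage genes were read as markers of other content. Hba-a1, an alpha-globin gene of red cells, had 64.3, 35.7 and 60.4 CPM in LP-10d 3xTg libraries, 99.9, 64.4 and 83.4 CPM in 3xTg vehicle libraries and 18.6, 29.5 and 11.1 CPM in WT vehicle libraries. All 6 3xTg libraries lay above all WT vehicle libraries, and the treated libraries lay below the untreated ones, the nearest pair by a small margin. The fitted log2 fold change was 2.06 ± 0.33 in 3xTg vehicle against WT vehicle (edgeR adjusted p = 0.0844), and -0.63 ± 0.32 in LP-10d 3xTg against 3xTg vehicle. Its copy Hba-a2, at 1.59 to 3.95 CPM, gave 0.05 ± 0.33 in 3xTg vehicle against WT vehicle, and in LP-10d 3xTg against WT vehicle it gave -0.34 ± 0.34, below 0 as the exception among the 5 red cell genes. Summed over 5 red cell genes, the level was 72.4 to 114 CPM in LP-10d 3xTg libraries, 106 to 177 CPM in 3xTg vehicle libraries and 33.4 to 75.4 CPM in WT vehicle libraries, and the part of blood in the vessel values was not tested. Blood left in the tissue and globin RNA made in the tissue cannot be told apart, and the near-identical alpha-globin copies can share reads. Perivascular macrophage genes summed to 38.3 to 44.2 CPM in LP-10d 3xTg libraries, 42.2 to 50.6 CPM in 3xTg vehicle libraries and 35.2 to 42.0 CPM in WT vehicle libraries, and the macrophage genes Lyve1 and Pf4 stood under 1 CPM in every library.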

How the data were processed

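The authors deposited raw counts for 55471 genes and FPKM values, the same counts scaled to gene length and library total; names and positions come with the deposited FPKM table. Reads were mapped to mm10, per the submitters' processing notes. No aligner, counter or strand setting is given in the sources used here. RNA (300 ng, TRIzol and a column) was made into libraries with an MGI kit, per the labels' protocols.

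The main test was edgeR 4.0.16 (R 4.3.3) on the counts of all 9 libraries: filterByExpr, TMM scaling, group means only, the quasi-likelihood test (non-legacy) and Benjamini-Hochberg adjustment over 17396 genes, threshold 0.05. The common biological coefficient of variation was 0.157. DESeq2 1.42.0 and limma 3.58.1 served as alternatives, and limma-trend was run on log2 of the deposited FPKM plus 0.1 or 1. Levels are CPM from the deposited counts and TMM-scaled library sizes; sums and scores use 0.5 as pseudocount where logged. All positions equalled GENCODE M21. The code was tested on simulated data. Replicates of every group differed by more than sampling noise (chi-square over genes).

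Members and lists were chosen with earlier results of these data known. Values in every library are given for the 8 members with the smallest p in any comparison and for the member with the highest mean FPKM in each of 7 roles. Of each other list, up to 4 genes with the smallest p were open to naming. Lyve1, Pf4 and Lef1 were named after their values were seen.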

Additional observations from a re-analysis of the deposited data

How the results depend on the processing

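The number of members past the threshold was 0 in every comparison and every alternative except DESeq2, which called 1 (Bcl6b) in 3xTg vehicle against WT vehicle and 2 (Bcl6b and Acta2) for all 3xTg against WT vehicle. The cause was not tested. Over all genes DESeq2 called 351, 1, 46 and 319 genes in 3xTg vehicle against WT vehicle, LP-10d 3xTg against 3xTg vehicle, LP-10d 3xTg against WT vehicle and all 3xTg against WT vehicle, where edgeR called 1, 0, 0 and 0. Leaving out each library gave 0 to 0 members in each comparison, and 0 to 11 genes in all for 3xTg vehicle against WT vehicle, the 11 without WT vehicle replicate 2. None of 26 recomputed fold changes reversed under any alternative: those of the 8 members with the smallest p against WT vehicle, and of Acta2 and Dcn in LP-10d 3xTg against 3xTg vehicle. Over all 36 members, recomputed after the data were seen, leaving out 1 library turned the sign of 19 in 3xTg vehicle against WT vehicle, 18 in LP-10d 3xTg against 3xTg vehicle, 17 in LP-10d 3xTg against WT vehicle and 19 for all 3xTg, Sox18, Pltp and Egfl7 among them in the comparisons with WT vehicle. On the log2(FPKM + 1) scale, which understates genes at low levels, Bcl6b gave -0.44 in 3xTg vehicle against WT vehicle. Under other scalings the median of all genes lay between -0.006 and 0.043. Of the medians over each role, 609 stayed within the spread between replicates and 28 did not, most of them for roles of 3 or 5 genes. The endothelial transcription factors, for example, gave -0.19 in 3xTg vehicle against WT vehicle and 0.02 without WT vehicle replicate 3. With the replicate number as a block, 0 members were called in any comparison. Libraries with the same number correlated between -0.17 and 0.38 in their deviations from group means, and 5 of 9 correlated best with their own number, so the numbers were not taken as pairs. A fit of only the libraries compared was not run for all 3xTg against WT vehicle, which uses all of them. With 3 libraries per group, an exact permutation test cannot go below p = 0.1. Levels under about 1 CPM rest on few counts, as for Tagln, Cnn1 and Aoc3.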

Other observations

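Of the 37 members, 13 overlap another annotated gene and 5 a protein-coding one. Egfl7 is the host gene of the endothelial microRNA Mir126a, which had 0 counts in every library. Aoc3, a vascular amine oxidase of smooth muscle, had 0.339, 0.593 and 0.768 CPM in LP-10d 3xTg libraries, 0.684, 0.454 and 0.599 CPM in 3xTg vehicle libraries and 0.971, 1.36 and 1.11 CPM in WT vehicle libraries, below WT vehicle in all 6 3xTg libraries. Its log2 fold change for all 3xTg was -1.0 ± 0.27 (edgeR adjusted p = 0.201). The adhesion molecule Icam1 had a log2 fold change of -0.42 ± 0.17 and the pericyte gene Art3 of -0.46 ± 0.19 in LP-10d 3xTg against 3xTg vehicle, each without overlap between these groups and each with an edgeR adjusted p of 1. Of the 131 tested genes in the further lists, groups did not overlap for 13 in that comparison, beside 11.6% of all genes. With all 3xTg against WT vehicle, the comparison given for Aoc3, 9 of the 131 did not overlap, beside 6.93% of all genes. Ependymal genes, the lining of the ventricle, summed to 14.1 to 35 CPM in LP-10d 3xTg libraries, 10.1 to 26.2 CPM in 3xTg vehicle libraries and 31.9 to 49.1 CPM in WT vehicle libraries.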
